A study of Mus musculus with 37 samples.

Results

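Stored maternal mRNA in the oocyte is held, silenced and released by RNA-binding proteins, and 9 of their genes were followed here through meiotic maturation: Cpeb1, Cpeb2, Cpeb3 and Cpeb4 (cytoplasmic polyadenylation element binding proteins), Dazl, Pum2, Ybx2, Zar1 and Zar1l. The genes were taken by symbol, and they are 9 of the 54752 genes in the deposited gene tables. All 9 were found, and all 9 passed the filter on low counts in both batches.

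Each library came from 1 oocyte of a C57BL/6 female aged 6 to 8 weeks that had received 5 IU of pregnant mare serum gonadotropin (PMSG). The germinal vesicle (GV) stage, an arrest in prophase of meiosis I, was represented by ovarian oocytes 48 h past that dose. For metaphase II (MII), reached within the animal, females were also given 5 IU of human chorionic gonadotropin (hCG), 48 h later than PMSG, and ovulated oocytes came from the oviduct (its ampulla) after another 15 h. Metaphase I (MI) oocytes had matured outside the animal, from denuded GV oocytes kept for 8 h in M16 medium. The zona pellucida and the polar body were removed from the oocytes before lysis. Batch A held 6 GV and 6 MII oocytes and batch B held 10 GV and 15 MI oocytes, 37 in all, so each later stage was compared with the GV oocytes of its own batch. MI and MII oocytes were never in the same batch, and stage, batch and the way of maturing cannot be told apart between them. The mother of each oocyte is not given, so p-values measure the spread between oocytes, some of which may share a mother.

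The total RSEM count per oocyte ran from 7509875 to 12648629 in GV of batch A, from 9930485 to 13988444 in MII, from 7184205 to 17724506 in GV of batch B and from 2709280 to 19390128 in MI. MI oocyte 15 had the lowest total. MII oocyte 1 stood apart with 29518 genes at 1 count or more, against 19273 to 22244 in the other MII oocytes. In MI oocytes 4, 8 and 9 HTSeq gave fewer reads relative to RSEM, with a median per-gene ratio of 1.13, 1.11 and 1.07, while it lay between 1.98 and 2.20 in the remaining 34 oocytes. The tests of genes within a batch were computed with and without each of these libraries, and those of transcripts with and without MII oocyte 1, while transcripts at MI and transcript usage were tested over all oocytes.

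The oocyte label was checked against marker genes. Each of 12 oocyte markers had counts in every group, Gdf9 being the most abundant, and the 12 together summed to 10229 to 17750 CPM (counts scaled to the size of the library, with TMM factors within a batch) in GV of batch A, 7356 to 9234 in MII, 3388 to 6255 in GV of batch B and 3381 to 5331 in MI. The 16 cumulus and granulosa cell markers summed to between 40.5 and 65.6 CPM in GV of batch A, 40.6 and 54.8 in MII, 34.1 and 89.7 in GV of batch B and 32.0 and 92.5 in MI. Cyp19a1 had the highest mean of the 16 in GV of batch A (16.1 CPM), MII (17.4) and GV of batch B (15.8). In MI the highest was Nr5a2. Ptx3 and Amhr2 were at 0 in every GV oocyte of batch A, and Foxl2, Amh, Ptx3 and Amhr2 in every oocyte of batch B. The 8 blood and immune markers summed to at most 6.43 CPM in every oocyte except MII oocyte 1, which reached 16.5. Within batch A these sums differed by stage, at 0.629 to 2.77 CPM in GV and 2.55 to 16.5 CPM in MII (exact permutation test, p = 0.00433).

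As background, CPEB proteins bind uridine-rich elements in the 3′-UTR, recruit the machinery that lengthens or shortens poly(A) tails in the cytoplasm, and so set when a stored mRNA is translated. DAZL and Pumilio proteins bind other short 3′-UTR elements, DAZL mostly as an activator and Pumilio mostly as a repressor of translation. YBX2 (also MSY2) coats and stabilises maternal mRNA in the growing oocyte, and ZAR1 and its paralogue ZAR1L bind maternal mRNA and act in the passage from oocyte to embryo.

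Levels of different genes were compared per length, as transcript counts divided by transcript length and scaled to the library total without ribosomal RNA (TPM). In GV oocytes of batch A the order ran from Zar1, at 1276 ± 653 TPM (SD, n = 6), through Cpeb1 (357 ± 75.5), Zar1l (348 ± 52.7), Dazl (258 ± 59.3) and Ybx2 (242 ± 83.4) to Pum2 (34.1 ± 7.28), Cpeb4 (28.1 ± 4.93), Cpeb3 (13.4 ± 3.91) and Cpeb2 (0.876 ± 0.250). Zar1 lay at rank 70 of 29009 genes with any signal in that group and Cpeb2 at rank 14626. The oocytes' ranges overlapped between neighbours in this order for Cpeb1 and Zar1l, for Zar1l and Dazl, for Dazl and Ybx2 and for Pum2 and Cpeb4, and they did not overlap for the other neighbours. A level sums all transcripts of a gene, coding or not, and a count on a short transcript weighs more. The Ybx2 level includes Ybx2-204, a non-coding transcript of 679 bases. Its mean share of Ybx2 counts was 42.1% in GV and 31.5% in MII of batch A, and 29.0% in GV and 26.6% in MI of batch B. Levels of the coding transcripts alone were not computed.

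The order was different in MII oocytes, where Dazl (282 ± 23.1 TPM; SD, n = 6) stood second to Zar1 (1415 ± 706), above Zar1l (182 ± 35.9), Cpeb1 (171 ± 22.0) and Ybx2 (84.8 ± 33.7). Dazl exceeded Zar1l in 6 of 6 MII oocytes without overlap of the ranges, whereas Zar1l had exceeded Dazl in 6 of 6 GV oocytes. The lower part was Cpeb4 (38.0 ± 4.66), Pum2 (37.2 ± 7.96), Cpeb3 (18.9 ± 4.47) and Cpeb2 (1.34 ± 0.743), with Cpeb4 and Pum2 overlapping. The ranges of Zar1l and Cpeb1 overlapped too, with Zar1l above Cpeb1 in 3 of 6 MII oocytes.

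In batch B, GV oocytes had Zar1 at 698 ± 233 TPM (SD, n = 10), Zar1l at 384 ± 97.0, Cpeb1 at 254 ± 36.2, Dazl at 180 ± 34.9 and Ybx2 at 128 ± 49.1. MI oocytes kept this order, with Zar1 at 503 ± 118 TPM (SD, n = 15), Zar1l at 328 ± 68.8, Cpeb1 at 275 ± 43.9, Dazl at 182 ± 44.1 and Ybx2 at 127 ± 38.1. Pum2, Cpeb4 and Cpeb3 followed at 41.5, 39.2 and 14.8 TPM in GV and at 45.9, 41.0 and 15.1 TPM in MI. Cpeb2 was last in both groups, at 0.891 and 0.799 TPM, and the genes above Pum2 overlapped from each to the next in both groups, as did Pum2 and Cpeb4, and Cpeb4 and Cpeb3 in GV only.

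**Figure D1:**
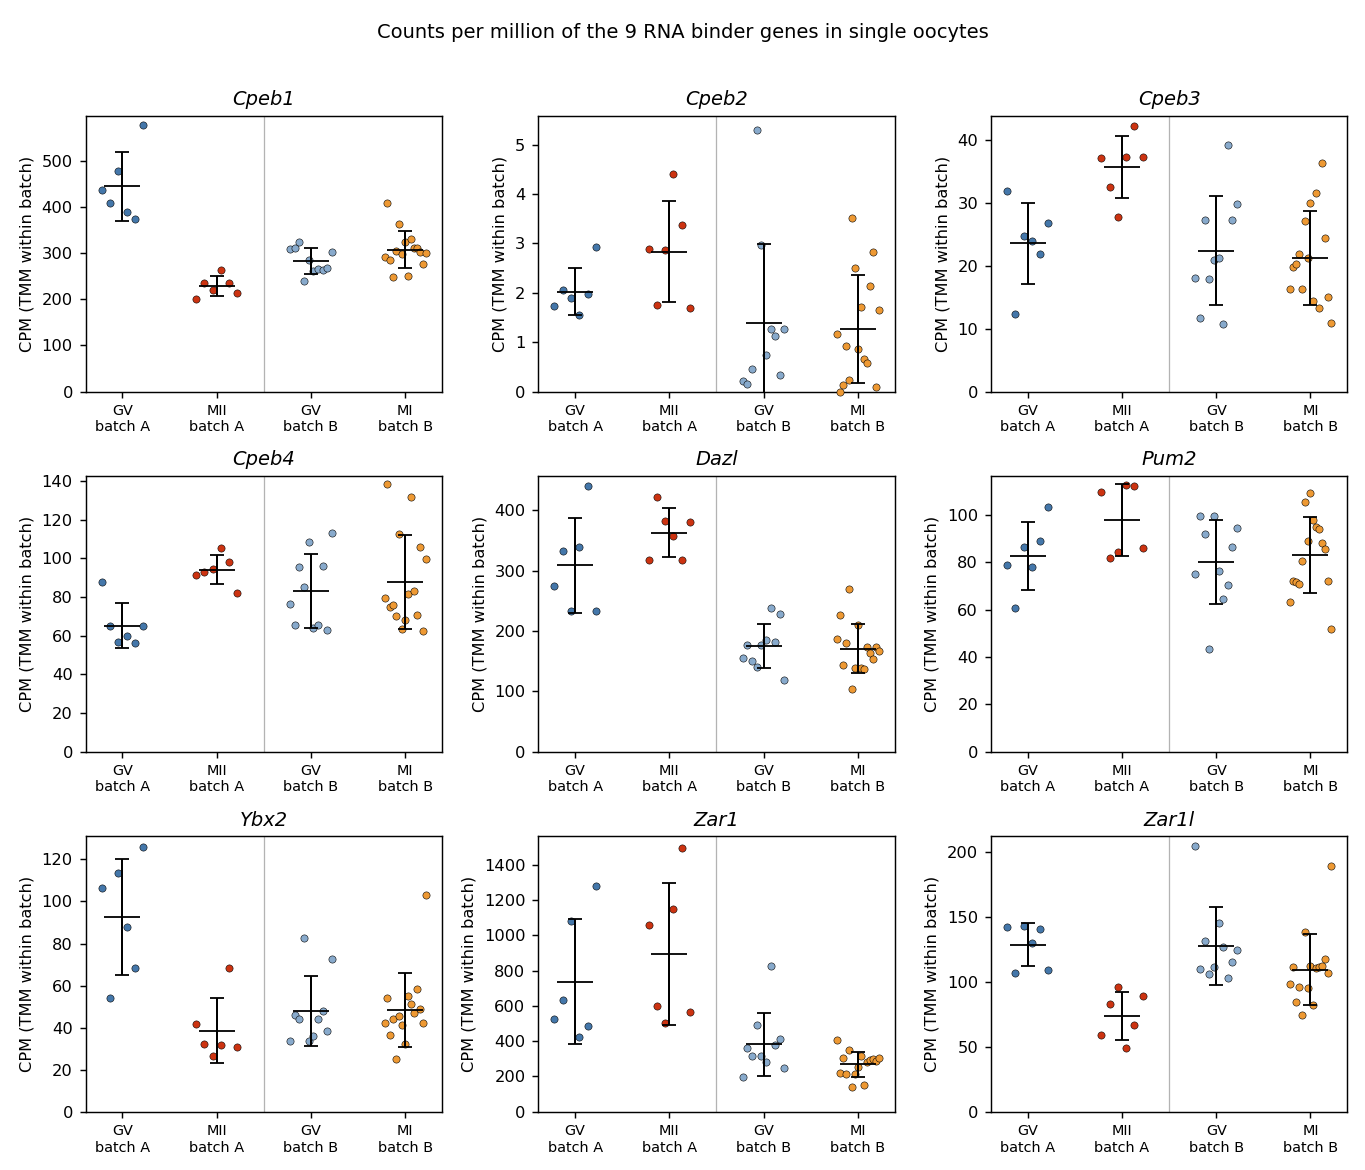
CPM (TMM factors within a batch) of the 9 genes in each of the 37 oocytes, one panel per gene with its own linear axis from 0. Points are oocytes, the long tick is the group mean and the bars are ± 1 SD, ending at 0 for Cpeb2 in GV of batch B, where the SD exceeds the mean; Cpeb1 and Zar1l are the panels in which every MII oocyte lies below every GV oocyte of batch A.

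The first comparison asked how these mRNAs change between the GV stage and the mature egg, within batch A. Relative to the rest of the transcriptome, 5 of 9 genes passed an adjusted p under 0.05, against 20.6% of the 12929 genes tested: Cpeb1, Ybx2 and Zar1l were lower in MII (11.5% of all genes tested were lower) and Cpeb3 and Cpeb4 were higher (9.06%), and with ERCC spike-in factors Cpeb1, Ybx2 and Zar1l stayed lower while Cpeb3 and Cpeb4 turned to values below 0 that did not pass. With a fold change over 2 also required, 1 of 9 passed (Ybx2), against 8.47% of all genes, and without GV oocyte 5 or MII oocyte 4 Cpeb1 passed as well (log2 fold change −1.01 in both). The ranges of GV and MII oocytes did not overlap for 2 of 9 genes, Cpeb1 and Zar1l, and did not overlap for 9.79% of all genes tested. Without MII oocyte 1, 4 of 9 genes passed the adjusted p, Cpeb3 being the one lost.

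The directions above depend on the scaling. TMM factors set the median log2 fold change of all genes to 0.01, whereas factors from the ERCC spike-ins (RNA standards, read here as equal in amount between oocytes) moved it to −0.72. With spike-in factors all 9 log2 fold changes were negative, and 3 of 9 genes (Cpeb1, Ybx2 and Zar1l) were lower by more than 2-fold at an adjusted p under 0.05, against 29.3% of all genes. Spike-in counts ran from 44665 to 128319 in GV and from 120280 to 143061 in MII of batch A, and were at most 32 per oocyte in batch B, where no such scaling could be made.

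Cpeb1, the founding CPEB of the oocyte, had 375, 424 and 579 CPM as its lowest, median and highest value in GV oocytes and 201, 228 and 263 CPM in MII. Every MII oocyte lay below every GV oocyte. Cpeb1 had a log2 fold change of −0.96 (SE 0.13, adjusted p = 0.000129, lower in 6 of 6 MII oocytes) and −1.70 (SE 0.25, adjusted p = 1.52e-05) with spike-in factors. Per 1000 spike-in counts, Cpeb1 had 27.5 to 79.6 counts in GV and 14.5 to 21.7 in MII, without overlap (exact permutation test, p = 0.00216 on both sides, and 6 against 6 oocytes can give none smaller).

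Cpeb4, which in frog oocytes takes over from CPEB1 late in meiosis, was at 56.3, 62.4 and 87.5 CPM (lowest, median, highest) in GV and at 82.1, 93.8 and 105 CPM in MII. GV oocyte 1 was the single GV oocyte inside the MII range, and 5 of 6 MII oocytes lay above all GV oocytes. Cpeb4 had a log2 fold change of 0.53 (SE 0.13, adjusted p = 0.0112) relative to the transcriptome and −0.24 (SE 0.26, adjusted p = 0.449) with spike-in factors. The first value lost its call when genes with low counts were kept in the test (adjusted p = 0.0571).

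Cpeb3 belongs to the same subfamily as Cpeb2 and Cpeb4 and was less abundant, at 12.4, 24.4 and 31.9 CPM in GV and 27.8, 37.3 and 42.3 CPM in MII. Here too 5 of 6 MII oocytes lay above all GV oocytes, and GV oocyte 1 was the one that reached into the MII range. Cpeb3 had a log2 fold change of 0.60 (SE 0.19, adjusted p = 0.0366), and −0.17 (SE 0.30, adjusted p = 0.633) with spike-in factors. The call was marginal: adjusted p was 0.0559, 0.0615 and 0.0725 without GV oocyte 3, 4 or 5, and 0.0650, 0.0690, 0.0730 and 0.0625 without MII oocyte 1, 4, 5 or 6. The 5′ end of the Cpeb3 gene overlaps March5 on the opposite strand, a gene at 187 CPM in GV and 209 CPM in MII, and the library type does not mark strand. The most abundant Cpeb3 transcript, Cpeb3-203, begins downstream of that overlap.

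Cpeb2 was near the limit of detection. It had 1.55, 1.94 and 2.92 CPM in GV and 1.69, 2.88 and 4.41 CPM in MII, with medians of 23.5 and 27.5 counts per oocyte, and the groups overlapped. Its log2 fold change of 0.48 (SE 0.32, adjusted p = 0.306; −0.23 with spike-in factors) was not distinguishable from 0 at this depth.

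Dazl, the germ-cell translational activator, ran through 232, 304 and 440 CPM in GV and 317, 369 and 421 CPM in MII. MII oocytes fell entirely inside the GV range. Dazl had a log2 fold change of 0.23 (SE 0.16, adjusted p = 0.323), which turned to −0.51 (SE 0.25, adjusted p = 0.0916) with spike-in factors. For Pum2, the Pumilio repressor, GV oocytes had 60.5, 82.7 and 103 CPM and MII oocytes 81.6, 97.8 and 113 CPM, with overlap and 3 of 6 MII oocytes above all GV oocytes. Its log2 fold change was 0.24 (SE 0.15, adjusted p = 0.263), turning to −0.50 (SE 0.26, adjusted p = 0.115) with spike-in factors, so neither gene passed the test in either scaling.

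Ybx2 had the log2 fold change of the 9 genes farthest from 0, with TMM and with spike-in factors. It had 53.9, 96.9 and 126 CPM in GV and 26.4, 32.1 and 68.5 CPM in MII. MII oocyte 5 was the highest of its group and reached into the GV range, while 5 of 6 MII oocytes lay below all GV oocytes. The log2 fold change was −1.26 (SE 0.25, adjusted p = 0.00234), and −1.99 (SE 0.32, adjusted p = 4.96e-05) with spike-in factors. Counted per 1000 spike-in counts, Ybx2 went from 6.17 to 19.3 in GV oocytes to between 1.74 and 5.74 in MII oocytes, without overlap (exact permutation test, two-sided p = 0.00216), and with HTSeq counts the ranges overlapped (p = 0.00649).

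Zar1l fell as well. GV oocytes had 107, 135 and 143 CPM and MII oocytes 49.1, 74.9 and 96.0 CPM, with no overlap between the groups. Zar1l had a log2 fold change of −0.80 (SE 0.17, adjusted p = 0.00349, lower in 6 of 6 MII oocytes) and −1.59 (SE 0.26, adjusted p = 6.60e-05) with spike-in factors, and per 1000 spike-in counts the range was 9.13 to 25.9 in GV and 4.04 to 7.07 in MII. Counts per spike-in count did not overlap for 3 of 9 genes (Cpeb1, Ybx2 and Zar1l), against 14.9% of all genes tested.

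Zar1, its more abundant paralogue, was in batch A the most uneven of the abundant members between oocytes of the same stage. GV oocytes had 423, 580 and 1282 CPM and MII oocytes 502, 829 and 1494 CPM, with wide overlap. GV oocytes 3 and 6 (1079 and 1282 CPM) and MII oocytes 1, 4 and 5 (1061, 1152 and 1494 CPM) formed the upper part, and the remaining oocytes lay between 423 and 634 CPM. The log2 fold change was 0.28 (SE 0.31, adjusted p = 0.564), turning to −0.43 (SE 0.34, adjusted p = 0.290) with spike-in factors. With 1 oocyte left out at a time it ran from 0.074 (without MII oocyte 5) to 0.51 (without GV oocyte 6), and it never passed. These upper oocytes also had the highest shares of ribosomal RNA in their stage, 22.1% and 21.2% in GV oocytes 3 and 6 and 26.8%, 25.5% and 31.3% in MII oocytes 1, 4 and 5, against at most 20.3% in the other GV and 20.8% in the other MII oocytes. In batch B, MI oocyte 6 had the highest share, 42.6%, with the lowest Zar1 level (140 CPM), while GV oocyte 7 had the highest Zar1 level (828 CPM) at 34.1%. The part of ribosomal RNA in the Zar1 level was not tested.

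**Figure D2:**
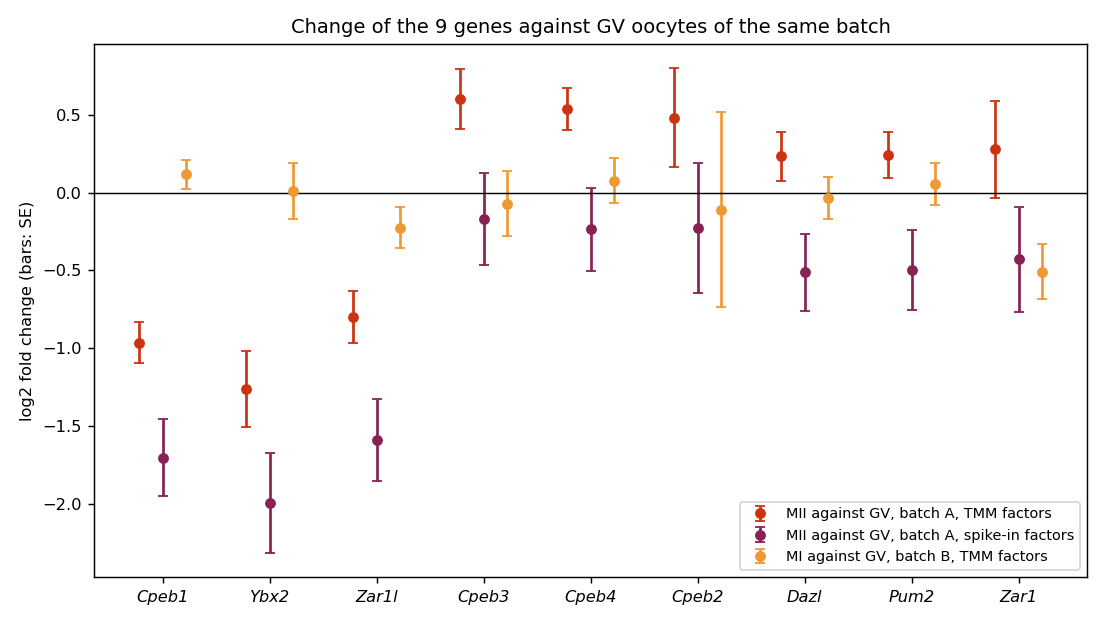
Log2 fold change of the 9 genes (vertical axis, bars are SE) for MII against GV of batch A with TMM factors and with ERCC spike-in factors, and for MI against GV of batch B with TMM factors. Cpeb1, Ybx2 and Zar1l lie below 0 in batch A under both scalings, the other 6 genes change sign between the scalings, and the batch B values lie between −0.51 and 0.12.

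Other transcripts moved between GV and MII in the same libraries. Of the 12 oocyte markers, 8 were lower in MII at an adjusted p under 0.05, against 11.5% of all genes tested, and none was higher (9.06%), with a median log2 fold change of −0.85 (Zp3 −2.21, Zp2 −2.14), and with spike-in factors 11 of 12 were lower, against 42.2%. The share of ribosomal RNA was 9.09% to 22.1% in GV and 16.6% to 31.3% in MII of batch A. The summed blood and immune markers had a median of 2.08 CPM in GV and 3.15 CPM in MII (exact permutation test, p = 0.00433). Whether these shifts have a part in the values of the 9 genes was not tested, and TMM factors cannot show a loss of RNA shared by most genes.

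The second comparison asked what had already changed by MI, within batch B. By edgeR, 0 of 9 genes passed an adjusted p under 0.05, against 0.145% of the 12419 genes tested, and the ranges overlapped for all 9, as they did for every gene tested (0.0% without overlap). By unadjusted p, 1 of 9 genes (Zar1) was under 0.05, against 11.0% of all genes tested, and DESeq2 also gave 0 of 9 after adjustment. Leaving out MI oocytes 4, 8 and 9, or any single oocyte, still gave 0 of 9 after adjustment, and by unadjusted p none was under 0.05 without GV oocyte 7 and 2 of 9 were (Zar1 and Zar1l) without MI oocyte 15, as also with a block on oocyte numbers and with oocytes 1 to 10 of each stage, the last chosen after seeing the data. Of the cumulus and granulosa cell markers, 7 of 16 were tested in batch B and 2 of 7 passed an adjusted p under 0.05, both lower in MI: Gja1, from 3.12 to 0.275 mean CPM, and Ccnd2, from 3.58 to 0.247 mean CPM, each with overlap. Their part in the values of the 9 genes was not tested.

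Zar1 was the gene with the smallest p in batch B. GV oocytes had 196, 339 and 828 CPM (lowest, median, highest) and MI oocytes 140, 288 and 408 CPM. GV oocyte 7 was far above the other GV oocytes, and 13 of 15 MI oocytes lay below the GV median. The log2 fold change was −0.51 (SE 0.18, adjusted p = 0.230), and without GV oocyte 7 it was −0.31 (adjusted p = 0.590).

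Zar1l had 103, 120 and 205 CPM in GV and 74.3, 111 and 190 CPM in MI, and 6 of 15 MI oocytes lay below all GV oocytes. Its log2 fold change was −0.23 (SE 0.13, adjusted p = 0.554). Cpeb1 had 240, 277 and 325 CPM in GV and 249, 302 and 410 CPM in MI, a log2 fold change of 0.12 (SE 0.09, adjusted p = 0.689). None of these changes at MI went past the spread between oocytes.

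Ybx2 stood at 33.6, 44.0 and 82.6 CPM in GV of batch B and at 24.9, 45.6 and 103 CPM in MI, with a log2 fold change of 0.01 (SE 0.18). For Cpeb3, Cpeb4, Dazl and Pum2 the log2 fold changes at MI lay between −0.07 and 0.08, with SE from 0.13 to 0.21. Cpeb2 had a log2 fold change of −0.11 with an SE of 0.63, from 0 to 58.0 counts per oocyte. MI oocyte 2 had no Cpeb2 count by RSEM, which allows up to 3 counts, or 0.288 CPM, and 1 count by HTSeq.

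Whether the MII change differs from the MI change was tested directly, each against its own GV oocytes and over all 37 oocytes. The difference passed for 2 of 9 genes, against 5.46% of the 15083 genes tested. For Cpeb1 it was −1.01 on the log2 scale (SE 0.16, adjusted p = 8.98e-05) and for Ybx2 it was −1.21 (SE 0.32, adjusted p = 0.0162), so the lowering of both mRNAs at MII, relative to the other genes, differed from their change at MI (0.12, SE 0.09, and 0.01, SE 0.18). The Ybx2 difference missed the threshold with HTSeq counts (adjusted p = 0.0659). Zar1l, although it passed at MII and not at MI, did not pass the test of the difference (−0.50, SE 0.23, adjusted p = 0.224), nor did Cpeb3 (0.73, SE 0.34, adjusted p = 0.231), Cpeb4 (0.53, SE 0.23, adjusted p = 0.210) or Zar1 (0.84, SE 0.35, adjusted p = 0.177). No spike-in scaling of this test could be made.

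GV oocytes were in both batches and show how far levels can be set side by side across them. Relative to the other genes, 3 of 9 differed between GV of batch B and GV of batch A at an adjusted p under 0.05, against 29.5% of all genes tested. Cpeb4 was higher in batch B by 0.89 on the log2 scale (SE 0.18, adjusted p = 9.17e-05), Zar1l by 0.53 (SE 0.17, adjusted p = 0.0136) and Pum2 by 0.49 (SE 0.16, adjusted p = 0.0183), while Zar1l lost the call with HTSeq counts, also without MI oocytes 4, 8 and 9, and with genes of 1 count or more kept (adjusted p from 0.0721 to 0.113), and Pum2 lost it in the last of these (adjusted p = 0.177). The batch shift of Cpeb4 is thus larger than its change from GV to MII, and CPM values were read only within a batch.

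At the level of transcripts, 4 of 23 tested transcripts of these genes passed an adjusted p under 0.05 with a fold change over 2 between GV and MII, against 5.57% of the 22461 transcripts tested. With a block on oocyte numbers, which do not pair oocytes, 2 of 23 passed, and Cpeb1-201 and Ybx2-205 lost their calls. Cpeb1 was carried by a pair of coding transcripts that overlap in their 3′-UTR. Cpeb1-201 held 53.6% to 90.8% of Cpeb1 counts in GV oocytes and 53.0% to 70.5% in MII, and its level fell from a median of 282 to a median of 145 CPM (log2 fold change −1.07, SE 0.19, adjusted p = 0.00357). Without GV oocyte 6 that fold change was −0.95, under the 2-fold limit. Cpeb1-203 held a median of 35.4% in GV and 32.5% in MII, with a log2 fold change of −0.88 (SE 0.32, adjusted p = 0.109), and it passed without GV oocyte 2 (−1.09, adjusted p = 0.000475). In batch B the shares ran from 31.1% to 59.9% in GV and from 28.7% to 90.2% in MI for Cpeb1-201.

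Ybx2 counts went mainly to the coding transcript Ybx2-205 and to Ybx2-204, a short transcript annotated as retaining an intron. Ybx2-204 had 21.6, 41.9 and 58.9 CPM in GV and 8.81, 11.0 and 15.9 CPM in MII, without overlap (log2 fold change −1.78, SE 0.27, adjusted p = 0.00132). Ybx2-205 went from 28.9, 38.4 and 63.1 CPM to 14.7, 16.8 and 35.0 CPM (log2 fold change −1.05, SE 0.26, adjusted p = 0.0213), a call that was lost without MII oocyte 4 (adjusted p = 0.0543) or 6 (adjusted p = 0.0523), and whose fold change was under 2 without GV oocyte 3 (−0.995) or 6 (−0.90) or MII oocyte 3 (−0.97). Per spike-in count both were lower still, by −2.40 and −1.76 on the log2 scale. The coding Ybx2-201 held a median of 10.6% of Ybx2 counts in GV and 13.9% in MII, and it did not pass.

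Zar1 counts came almost entirely from the coding transcript Zar1-201, at 95.5% to 99.1% in GV and 92.5% to 96.1% in MII of batch A. The fourth transcript that passed is a Zar1 retained-intron transcript (ENSMUST00000200883), which was singled out after its values were seen. It has 1 exon at chr5:72576806-72579299 on the minus strand (GRCm38), spans the last 3 exons of Zar1-201 with the introns between them, and runs 308 bases past the 3′ end of Zar1-201. The retained-intron transcript had 4.38, 5.54 and 7.47 CPM in GV oocytes and 25.1, 34.5 and 51.0 CPM in MII oocytes, from 40 to 75 and from 241 to 591 counts.

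Every MII oocyte exceeded every GV oocyte in this transcript, the reverse of the pattern in Cpeb1 and Zar1l. The log2 fold change was 2.67 (SE 0.22, adjusted p = 4.83e-05, higher in 6 of 6 MII oocytes), and per spike-in count the transcript was also higher, by 1.97 on the log2 scale without overlap (exact permutation test, two-sided p = 0.00216). Its share of Zar1 counts went from 0.901% ± 0.373 (SD, n = 6) in GV to 4.41% ± 1.08 (SD, n = 6) in MII. In the test of transcript usage, which asks whether transcripts change their share within a gene, Zar1 passed with an adjusted p of 3.22e-17 by edgeR and 0.00303 by limma. In batch B the retained-intron transcript had 4.51 to 21.1 CPM in GV and 4.98 to 19.4 CPM in MI, with a log2 fold change of −0.12 (SE 0.27, adjusted p = 0.999).

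**Figure D3:**
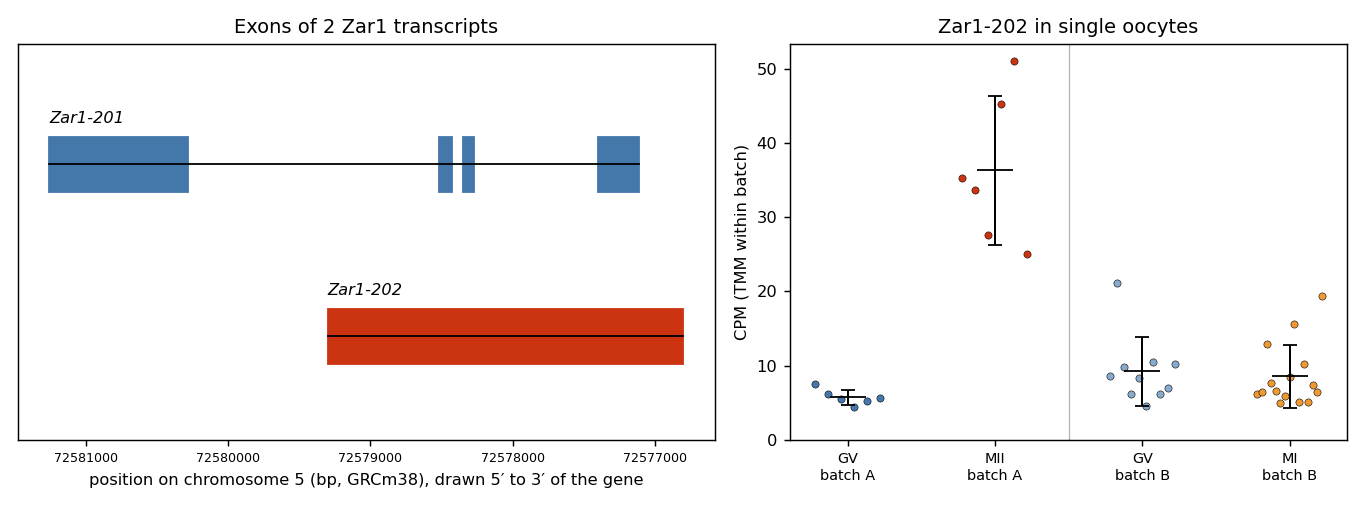
Left, exons of the coding transcript Zar1-201 (upper) and the retained-intron transcript of Zar1 (lower, under its transcript name) to scale on chromosome 5 (GRCm38, axis in bp and reversed so that the gene reads 5′ to 3′); right, CPM of the retained-intron transcript in each oocyte (TMM factors within a batch, long tick is the mean, bars are ± 1 SD). MII oocytes lie between 25.1 and 51.0 CPM, above all GV oocytes of batch A at 4.38 to 7.47 CPM.

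Transcript usage between GV and MII passed for 2 of the 7 genes with at least 2 tested transcripts, against 5.29% of the 5477 genes tested. The second was Cpeb1 by edgeR (adjusted p = 0.0470), which limma did not call (adjusted p = 0.262). Of the Cpeb1 transcripts, the minor Cpeb1-209, named after its values were seen, passed by usage (adjusted p = 0.0391), with a mean share of 0.755% in GV and 2.24% in MII, and neither Cpeb1-201 nor Cpeb1-203 did. Between GV and MI, 0 of 27 transcripts of these genes passed an adjusted p under 0.05 by edgeR (0.0% of 22717 transcripts tested), 2 of 27 had an unadjusted p under 0.05, against 7.11% of all transcripts tested, and DESeq2 gave 0 of 27. Usage between GV and MI passed for 0 of 7 genes by edgeR (0.0% of the 5535 genes tested) and for 0 of 7 by limma.

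Zar1l had a single transcript, and the other transcripts named below did not pass between GV and MII in the full set of oocytes. Dazl-201 held 51.5% to 98.0% of Dazl counts in GV of batch A and 53.7% to 78.0% in MII, the rest being mostly Dazl-204, and neither passed (adjusted p = 0.929 and 0.274). Cpeb4 was divided between a pair of coding transcripts that share their 3′-UTR, ENSMUST00000109412 (26.0% to 78.3% in GV, 27.2% to 63.8% in MII) and Cpeb4-203, and the former passed the adjusted p, though not the 2-fold limit, only without GV oocyte 1 (log2 fold change 0.97, adjusted p = 0.0463). Cpeb3 came mainly from Cpeb3-203, with a median share of 86.7% in GV and 87.3% in MII of batch A. For Pum2, the median share of ENSMUST00000178015, the transcript with most counts in batch A, was 75.2% in GV and 59.4% in MII of batch A but 24.8% in GV and 17.9% in MI of batch B, a difference between batches that was not tested. Cpeb2-201 ranged from 0% to 100% of Cpeb2 counts, at the low counts given above.

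The mRNAs of these regulators have 3′-UTR elements of their own, and the annotated 3′ ends were searched, on the transcript strand, for the letters of the CPE (TTTTAT and TTTTAAT), the polyadenylation hexamers (AATAAA and ATTAAA), the Pumilio element (TGTANATA) and a DAZL-type element (TTGTT). The 3′-UTR of the most abundant coding transcript was at least 250 bases long in 7 of 9 genes, 146 bases in Zar1 and 14 bases in Zar1l, where the annotation may hold too little of the 3′ end to be read. In the last 250 bases, TTTTAT was present in 4 of 7 genes (Cpeb2, Cpeb3, Cpeb4 and Ybx2), against 28.4% of the genes tested in either batch, and TTTTAAT in 1 of 7 (Cpeb1), against 10.8%. AATAAA was in 6 of 7, all but Ybx2, against 70.3%, and ATTAAA in 1 of 7 (Cpeb4), against 28.6%. For Ybx2 the end searched was that of Ybx2-205, at chr11:69941576. The coding Ybx2-201 runs on to chr11:69941605, and those further bases were not searched. TTGTT was in 7 of 7, against 46.2%, and TGTANATA was in 0 of 7, against 9.76%. In the last 100 bases, a window chosen after seeing the data, TTTTAT was in 1 of 8 genes, Ybx2, against 15.4%, AATAAA in 7 of 8, against 65.6%, ATTAAA in 1 of 8, against 22.2%, and TTGTT in 3 of 8, against 24.3%. TTTTAAT and TGTANATA were in 0 of 8, against 5.91% and 5.21%.

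The stretches below are 30 bases of the GENCODE transcript sequence around each CPE match, 5′ to 3′ with the match in capitals, shown for the 4 genes that hold a match and passed the adjusted p between GV and MII with TMM factors (Cpeb3 and Cpeb4 turned below 0 with spike-in factors and did not pass). They lie at chr11:69941533-69941562 (plus strand) for Ybx2, chr7:81347256-81347285 (minus strand) for Cpeb1, chr11:31935407-31935436 (plus strand) for Cpeb4 and chr19:37021505-37021534 (minus strand) for Cpeb3, all in GRCm38 and in the 3′-UTR of the last exon. The match begins 33 bases from the annotated end in Ybx2, 249 in Cpeb1, 217 in Cpeb4 and 227 in Cpeb3.
Ybx2: ctctgaagccaTTTTATgaactgtcatgtg
Cpeb1: ttgacttttctTTTTAATttaacgattact
Cpeb4: ggtaattcattTTTTATtaaagtcattttc
Cpeb3: gaataaattaaTTTTATgatgctaattctt

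Of these 4 matches the one in Ybx2 lies nearest to its annotated 3′ end. A match describes these letters only, and which 3′ ends were used in the oocytes was not tested.

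Among 34 partners of these proteins (cytoplasmic polyadenylation, masking and other binders of stored mRNA), 31 were tested in batch A, and Msi1, Nanos3 and Boll did not pass the filter. In MII, 5 of 31 were higher at an adjusted p under 0.05 with TMM factors, against 9.06% of all genes tested, and 5 of 31 were lower, against 11.5%. With spike-in factors 0 of 31 were higher, against 1.11%, and 17 of 31 lower, against 42.2%. The median log2 fold change of the list was 0.05 with TMM factors, beside 0.01 over all genes, and −0.69 with spike-in factors, beside −0.72. Ybx3, a Y-box protein related to YBX2, was the partner lowered by more than 2-fold with TMM factors (11 of 31 were with spike-in factors), from 177 to 55.4 mean CPM without overlap (log2 fold change −1.68, SE 0.20, adjusted p = 2.99e-05; −2.42 with spike-in factors). Sympk, the scaffold symplekin of the polyadenylation machinery, was the one raised by more than 2-fold with TMM factors, from 16.6 to 33.6 mean CPM with overlap (log2 fold change 1.02, SE 0.31, adjusted p = 0.0283), and it did not pass with spike-in factors (0.30, SE 0.34).

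The partners with the highest levels differed in their calls with TMM factors, and both were lower with spike-in factors. Btg4, an adaptor of mRNA decay that is also on the list of stored targets, was at 1251 TPM in GV and 1244 TPM in MII (log2 fold change 0.11, SE 0.13, adjusted p = 0.571) and was lower with spike-in factors (−0.68, SE 0.24, adjusted p = 0.0289). Tacc3, at 722 and 426 TPM, was lower in MII (log2 fold change −0.62, SE 0.13, adjusted p = 0.00471; −1.36 with spike-in factors). Between GV and MI, 0 of 31 partners passed an adjusted p under 0.05 by edgeR, against 0.145% of all genes tested, and the median was 0.07 beside 0.02 over all genes.

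Of 12 stored targets, maternal mRNAs known to be translated during maturation, 4 were higher in MII at an adjusted p under 0.05 with TMM factors, against 9.06% of all genes tested, and none was lower (11.5%), while with spike-in factors all 12 were below 0 and 2 passed as lower, against 42.2%. Their median log2 fold change was 0.36 with TMM factors, beside 0.01 over all genes, and −0.36 with spike-in factors. Plat, tissue plasminogen activator, was the most abundant, at 1627 TPM in GV and 2187 TPM in MII (log2 fold change 0.54, SE 0.13, adjusted p = 0.00857; −0.17 with spike-in factors). Slbp, which binds histone mRNA, followed at 1536 and 1741 TPM and did not pass (adjusted p = 0.264). Between GV and MI, 0 of 12 passed an adjusted p under 0.05 by edgeR, against 0.145% of all genes tested, with a median of −0.03 beside 0.02 over all genes.

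Each gene was also set beside the 11804 genes that passed the filter in both batches, by the mean of Pearson's r of log2 CPM over the 12 oocytes of batch A and r over the 25 oocytes of batch B. The oocytes of a batch differ in stage, depth and ribosomal RNA share, which all genes have in common, so these values describe a likeness and nothing more. Nearest to Cpeb1 was Ap1s1 (r = 0.91 in batch A and 0.65 in batch B), followed by Tnip1 (0.84 and 0.53). Cpeb4 was nearest to Strn (0.94 and 0.77) and Naa30 (0.94 and 0.73), Dazl to Rtraf (0.90 and 0.74) and Gtf2a2 (0.84 and 0.69), and Zar1 to Cdt1 (0.87 and 0.81) and Leprot (0.94 and 0.71).

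For Ybx2 the nearest genes were Pitpna (0.88 and 0.69) and Tut7 (0.90 and 0.59), for Zar1l Hmgb2 (0.77 and 0.64) and Pir (0.80 and 0.60), and for Pum2 Utp20 (0.85 and 0.66) and Usp28 (0.83 and 0.66). Cpeb3 was nearest to Ampd3 (0.93 and 0.59) and Ube4b (0.83 and 0.67) and Cpeb2 to Galnt11 (0.71 and 0.64) and Adnp2 (0.73 and 0.59). Among the 9 genes themselves, Cpeb1 and Ybx2 had r = 0.86 over batch A, where both differ between stages, and −0.05 over batch B.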

How the data were processed

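RNA of 37 single oocytes was sequenced after Smart-seq2, which primes on poly(A) tails, so a level is the amount of polyadenylated RNA captured and can move with tail length as well as with RNA amount. Per the submitters' processing notes, reads were trimmed with Trim Galore 0.6.4, aligned to mm10 with STAR 2.7.6a and counted with HTSeq 0.12.4 and RSEM 1.3.1. The deposited gene values are an integer count per gene (HTSeq) and an expected count per gene and per transcript (RSEM). The expected counts were rounded and ERCC spike-ins left out of the genes tested. Stages were compared within a batch in R 4.3.3 with edgeR 4.0.16 (TMM, filterByExpr, quasi-likelihood F-test, Benjamini-Hochberg over all genes or transcripts tested), and usage with diffSpliceDGE. Other fits used DESeq2 1.42.0, limma 3.58.1, spike-in factors, HTSeq counts, a filter of 1 count, a batch covariate, and each oocyte left out in turn. Values were tabulated in Python 3.11.15 with pandas 2.3.3 and numpy 2.4.6, and drawn with matplotlib 3.10.9. Names, lengths and sequences came from GENCODE M21, whereas the authors mapped to VM20.

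Named were the 9 genes and some, but not all, of their transcripts with a mean share of at least 10% in any group. A Zar1 retained-intron transcript and Cpeb1-209 were chosen after their values were seen. List genes named were those that passed with a fold change over 2 and otherwise those with the highest level. Of the 6 oocyte markers that passed so with TMM factors, only Zp3 and Zp2 were named. Also named were the 2 genes nearest each member by mean Pearson's r of log2 CPM. The members and lists were chosen with earlier results of these data known. Floors of 3 counts cover counting error only. The main edgeR fits of genes, transcripts, differences between groups and usage were tested on simulated data. The other fits and the permutation test were not.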

Additional observations from a re-analysis of the deposited data

Results flagged for a closer look

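In 8 of 45 groups of values tested, 1 oocyte lay far from the others of its group, by its gap to the nearest value over the group's range, and chance alone marks about 1 in 20 groups. The rule was set for groups of at most 10 oocytes, so no value of the 15 MI oocytes was tested. MI oocyte 15 had the lowest total RSEM count, 2709280, and the highest Ybx2 level in MI, 103 CPM. For Cpeb2 it was GV oocyte 6 of batch A at 2.92 CPM, for Cpeb4 GV oocyte 1 of batch A at 87.5 CPM and for Ybx2 MII oocyte 5 at 68.5 CPM. In batch B, GV oocyte 7 had 828 CPM of Zar1 and GV oocyte 1 had 205 CPM of Zar1l. MII oocyte 1 stood out with 29518 genes detected and with blood and immune markers summing to 16.5 CPM, and MII oocyte 2 with oocyte markers summing to 9234 CPM.

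The change at MII differed from the change at MI by the test of the difference for Cpeb1 (−1.01 on the log2 scale) and Ybx2 (−1.21). Batch, stage and maturation in the animal or in culture cannot be told apart in that difference.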

How the results depend on the processing

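Cpeb1, Ybx2 and Zar1l stayed lower in MII at an adjusted p under 0.05 in all 7 other fits of batch A, with spike-in factors and without any single oocyte. Cpeb3 lost its call in 3 of those 7 fits, with an adjusted p of at most 0.146, and Cpeb4 in 1. Unless stated, the cause of a change below was not tested.

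With spike-in factors the log2 fold changes of Cpeb2 (−0.23), Cpeb3 (−0.17), Cpeb4 (−0.24), Dazl (−0.51), Pum2 (−0.50) and Zar1 (−0.43) changed sign, 3919 genes in place of 1095 passed the adjusted p and the fold change between GV and MII, and 3 of 9 members passed the adjusted p. The adjusted p alone gave 2662 genes and 2089 transcripts, the latter in place of 1252. With genes of 1 count or more kept, 1859 genes passed the adjusted p and the fold change between GV and MII, and 3 of 9 members passed the adjusted p. That filter also gave 40 genes in place of 15 between GV and MI, 1600 in place of 823 in the difference, 2 transcripts in place of 0 at MI, and 1 member in place of 3 between the GV groups, and the Pum2 transcript ENSMUST00000111122 at MI turned to −0.00178. DESeq2 gave 121 genes and 103 transcripts at MI, and limma 14 genes by usage at MI in place of 0. HTSeq counts gave 0 genes at MI and 319 in the difference (1 of 9 members), and without MI oocytes 4, 8 and 9 they gave 0 and 374 (1 of 9), while RSEM counts without them gave 36 at MI. A batch covariate over all oocytes gave 653 genes at MII and 107 at MI, and turned Ybx2 at MI to −0.011. With ribosomal RNA kept in the total, 20 of the mean levels in TPM moved by at least 1 SD and 16 did not. The order of the genes in each group stayed the same. Dazl was then at 215 TPM in GV and 214 TPM in MII of batch A, and Zar1 at 1033 and 1038 TPM. Cpeb1 in GV of batch B went from 254 to 179 TPM.

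Oocyte numbers do not pair oocytes: the median r between same-numbered GV and later oocytes was −0.199 in batch A and 0.00831 in batch B. A block on them gave 532 transcripts at MII (2 of 23 of the members' transcripts in place of 4), 0 genes at MI, Cpeb3 at 0.019 and Ybx2 at −0.13 at MI, and Dazl-201 at 0.029 at MII and 0.024 at MI. At MI the block also kept only oocytes 1 to 10 of each stage, so its values there change both choices at once. Oocytes 1 to 10 of each stage without the block, an alternative chosen after seeing the data, gave Ybx2 −0.16 at MI.

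Leaving out 1 oocyte at a time gave 842 to 1246 genes at MII, 0 to 82 at MI and 912 to 1269 transcripts at MII, with 82 reached without MI oocyte 9 and 0 without MI oocyte 7. At MI the log2 fold changes ranged from −0.30 to 0.42 for Cpeb2, −0.15 to 0.051 for Cpeb3, −0.095 to 0.021 for Dazl, −0.018 to 0.093 for Pum2 and −0.10 to 0.13 for Ybx2, and at MII from −0.10 to 0.39 for Cpeb2-201 and −0.21 to 0.13 for Dazl-201. Without MII oocyte 1 the difference gave 512 genes. Cpeb2 had at most 58.0 counts per oocyte, and the part of depth in its spread was not tested.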

Other observations

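In the 6 MII oocytes, the order of Dazl levels was the reverse of the order of ribosomal RNA shares, from 421 CPM at 16.6% in MII oocyte 2 to 317 CPM at 31.3% in MII oocyte 5. This comparison was not planned. GV of batch A had the same reversal except between oocytes 2 and 4. Batch B did not follow it throughout. GV oocyte 7 had the highest Dazl level, 238 CPM, at 34.1%, and MI oocyte 7 had 139 CPM at the lowest share, 19.0%. The lowest Dazl levels, in GV oocyte 10 and MI oocyte 6, were at the highest shares (35.7% and 42.6%). The part of ribosomal RNA in the Dazl level was not tested.

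Levels rest on oligo-dT priming, and tail length was not measured. RSEM divides counts between transcripts that share most of their sequence, so shares carry an error that the counts do not show. The annotation used is a release later than the one behind the counts, the 3′ ends used in the oocytes were not tested, and the mother of each oocyte is not given.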
